A study of Mus musculus with 12 samples.

Results

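Lipogenesis and cholesterol synthesis were followed through 31 genes in mouse hearts with and without a knockout of PTCD1, a pentatricopeptide repeat protein that works in mitochondria. The genes were taken by symbol from 51911 features of the deposited gene tables and were divided by pathway into a fatty acid branch of 16 genes and a sterol branch of 15 genes. Total RNA of hearts was sequenced in 12 libraries that form 4 groups of 3. Hearts carried the PTCD1 knockout (KO) or were wild type (WT), and each genotype was measured untreated and after CMC, a carbodiimide that marks pseudouridine in RNA and was applied to the isolated RNA rather than to the mice. All groups share the same tissue and the same removal of cytoplasmic ribosomal RNA. The sources used here do not give the promoter or cell type that drives the knockout, the age and sex of the mice or the number of animals per library. Since nothing says whether replicates are separate animals, each p below measures the spread between these libraries only, which may be technical.

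Fatty acid synthesis starts from citrate: ATP citrate lyase releases acetyl-CoA, acetyl-CoA carboxylases turn it into malonyl-CoA, and fatty acid synthase joins these units into palmitate, which elongases lengthen and desaturases make unsaturated. The fatty acids are then placed on glycerol to form triglyceride. Cholesterol is made from acetyl-CoA by a separate route through mevalonate, squalene and lanosterol. The transcription factors SREBP-1 and ChREBP are known to drive the first route and SREBP-2 the second, and INSIG proteins hold the SREBPs back in the endoplasmic reticulum when sterols are plentiful. In the heart, fatty acids are mainly burned, malonyl-CoA limits their entry into mitochondria, and liver and fat tissue are the main sites of lipogenesis.

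Nuclear-encoded genes carried 2683284 to 3187748 of 10389398 to 12462093 counts per library, and levels below are counts per 1000000 nuclear counts (CPM) after TMM scaling. The share of mitochondrial transcripts was 73.0% ± 0.244 (SD, n = 3) in untreated KO, 72.5% ± 0.395 in untreated WT, 75.2% ± 0.380 in KO after CMC and 71.2% ± 1.04 in WT after CMC. Ptcd1 had 28, 17 and 19 counts in the untreated KO libraries against 78, 71 and 74 in WT, and 23, 21 and 20 against 79, 103 and 74 after CMC. Replicate 3 of WT after CMC stood apart from its group, with a chi-square per degree of freedom of 1.96 and 2.30 against the other two, where untreated WT pairs gave 1.11 to 1.12. Cardiomyocyte markers (8 genes, all detected) summed to 121571 to 122174 in untreated KO and 200724 to 204025 in untreated WT. In such bulk RNA, fewer cells of a type and less RNA per cell cannot be told apart.

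Promoter windows of RefSeq on GRCm38.p6, from 250 bases before to 50 bases after a start, were at hand for 24 of the 31 genes. The stretches below are shown because they carry the letters of the CCAAT box, of the sterol regulatory element or of both. They come from genes called lower, a gene called higher and a gene that did not pass the test. Capitals mark the CCAAT box (CCAAT, or ATTGG on the other strand), which NF-Y binds, and the sterol regulatory element searched as TCACNCCAC. Sequences run 5′ to 3′ on the gene's strand. The Fasn stretch spans chr11:120824548-120824647 on the minus strand and ends 1 base before the start. The Pmvk stretch spans chr3:89454391-89454450 on the plus strand, Elovl5 chr9:77917275-77917359 on the plus strand, Hmgcs1 chr13:119690201-119690320 on the plus strand and Mlxipl chr5:135106741-135106800 on the plus strand. None of the 5 overlaps an annotated exon.
Fasn: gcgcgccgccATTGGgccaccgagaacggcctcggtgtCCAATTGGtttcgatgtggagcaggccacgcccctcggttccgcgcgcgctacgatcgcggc
Pmvk: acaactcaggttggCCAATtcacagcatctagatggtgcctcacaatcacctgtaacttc
Elovl5: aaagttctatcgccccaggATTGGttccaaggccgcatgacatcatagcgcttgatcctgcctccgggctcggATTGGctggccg
Hmgcs1: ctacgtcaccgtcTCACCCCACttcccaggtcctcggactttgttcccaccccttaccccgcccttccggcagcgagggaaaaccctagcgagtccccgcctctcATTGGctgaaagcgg
Mlxipl: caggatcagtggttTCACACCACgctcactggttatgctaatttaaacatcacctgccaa

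The Fasn run CCAATTGG holds the box on both strands, overlapping by 2 bases. Searched on both strands, the CCAAT box lay in a window of 8 of 12 fatty acid genes and 12 of 12 sterol genes, against 41.1% of all 27025 genes with a window. It was thus in genes that fell (Fasn, Pmvk), in a gene that rose (Elovl5) and in one that did not pass (Hmgcs1). The sterol element lay in 1 of 12 fatty acid genes (Mlxipl, 136 bases before a start) and in 1 of 12 sterol genes (Hmgcs1, 137 bases before the start), against 1.44% of all genes. The E-box CACGTG, the core of the element that ChREBP and MLX bind, lay in 2 of 12 and 3 of 12 (Elovl5, Mlxipl, Dhcr7, Insig1 and Sc5d), against 8.09% of all genes. A match is a run of letters and not a measured site.

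In untreated hearts the fatty acid branch was lower in KO and the sterol branch went both ways. All 16 fatty acid genes were tested: 12 fell, 2 rose (Elovl5 and Dgat1) and 2 did not pass (Acaca and Me1), with a median log2 fold change of -0.73. The 13 sterol genes tested comprised 4 that fell, 3 that rose and 6 that did not pass, and their median was -0.12. The background was high: 57.8% of all 12195 nuclear genes tested passed, 29.1% higher and 28.7% lower, with a median of -0.00. The count of sterol genes called, 7 of 13, is near that background, and the count of fatty acid genes called lower, 12 of 16, is above it, though the genes were chosen with earlier results of these data known. Without a TMM factor the median of all genes moved by 0.12 on the log2 scale, and 61.5% rather than 50.4% of called genes were higher, and Me1 joined the genes that rose (adjusted p = 0.0384), which left 12 fatty acid genes lower and 3 higher. Genes passed at an adjusted p of 0.05 by the edgeR quasi-likelihood test with Benjamini-Hochberg adjustment over all genes tested, and every adjusted p below comes from it unless another tool is named.

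**Figure D1:**
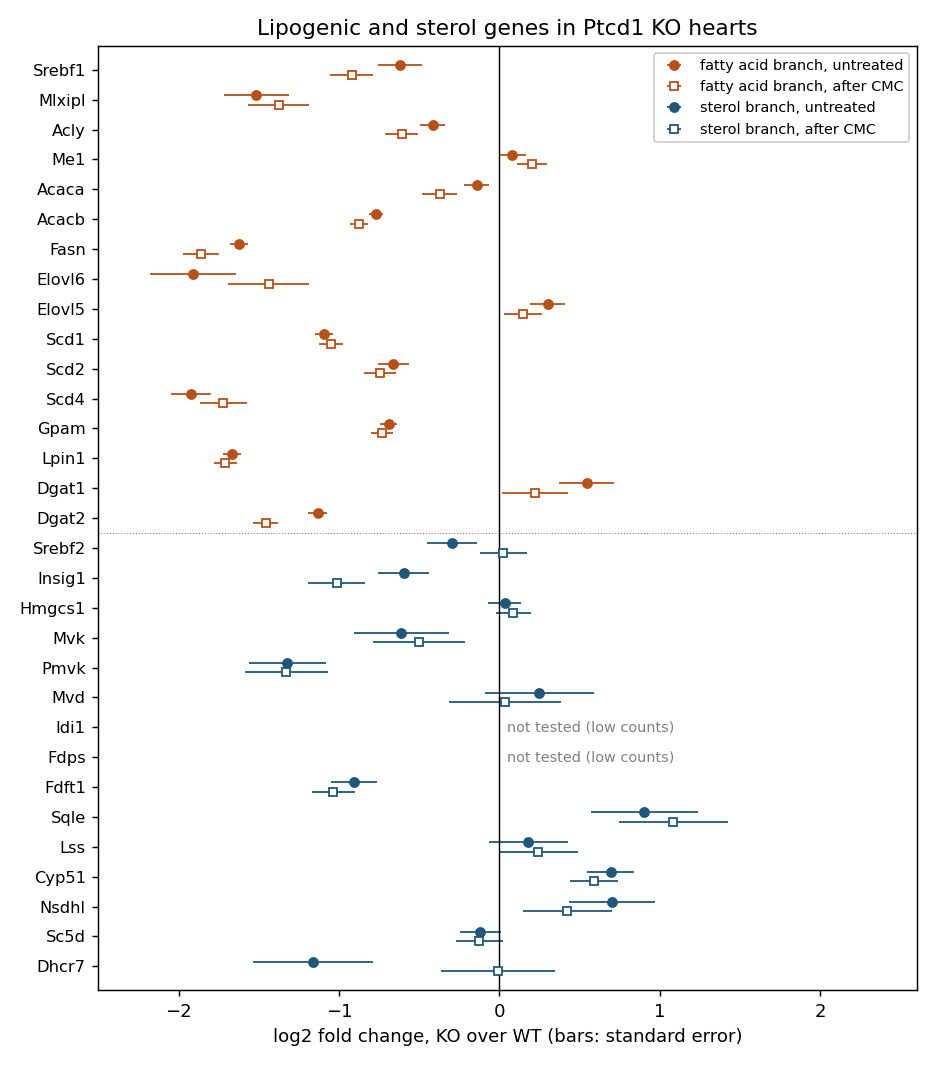
Log2 fold change of KO over WT (x axis, bars are standard errors) for the 31 genes in pathway order (y axis), untreated (filled circles) and after CMC (open squares), with the fatty acid branch above the dotted line and the sterol branch below it. Most fatty acid genes lie left of 0, down to -1.92 for Scd4, whereas sterol genes lie on both sides, and Idi1 and Fdps have no point because their counts were too low to test.

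Summed over its genes, the fatty acid branch held 1246 to 1321 CPM in the untreated KO libraries and 2317 to 2567 in WT. The sterol branch held 196 to 207 against 213 to 229. Neither sum overlapped between genotypes, and the fatty acid sum is carried by its abundant genes. The gap between the sterol sums rests on TMM scaling, with factors of 1.04 to 1.05 in untreated KO and 0.953 to 0.961 in untreated WT. Without these factors the sterol sums overlap. Levels per kilobase of exon allow only a rough comparison between genes. The length covers all annotated exons of a gene and may exceed the transcript present in heart. On this scale Gpam (70.3 ± 1.31, SD, n = 3), Dgat2 (69.8 ± 2.75) and Scd1 (64.6 ± 9.94) stood highest in untreated WT and did not differ beyond their spread. Acacb (54.7 ± 0.785), Lpin1 (33.3 ± 1.15) and Fasn (27.3 ± 3.10) followed. The most abundant sterol gene, Hmgcs1, stood at 14.6 ± 1.46 per kilobase, and Sqle and Idi1 were lowest at 0.566 and 0.464.

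Both transcription factors of the fatty acid branch were lower in KO. Srebf1, which encodes SREBP-1, stood at 19.7, 23.4 and 19.1 CPM in untreated KO and at 26.7, 39.1 and 30.1 in WT, a log2 fold change of -0.62 ± 0.14 (SE; adjusted p = 3.55e-05). Mlxipl, which encodes the glucose-sensing factor ChREBP and carries the sterol element shown above, stood at 8.93, 5.46 and 6.99 against 17.7, 24.7 and 19.4 (-1.52 ± 0.20; adjusted p = 4.75e-12). The groups did not overlap for either gene, and Mlxipl was 2.86-fold lower. Srebf1 overlaps Rai1 on the opposite strand, and the sources used here do not say whether strand was used in counting, so reads of such pairs cannot be told apart. Rai1 itself did not pass (0.05; adjusted p = 0.751).

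Of the genes that supply and use cytosolic acetyl-CoA, the step that joins the units moved most. Fasn, fatty acid synthase, stood at 99.7, 96.9 and 93.4 CPM in untreated KO and at 295, 335 and 267 in WT. It was 3.08-fold lower, with every KO library far under every WT library (log2 -1.62 ± 0.06; adjusted p = 2.84e-77). Acly, ATP citrate lyase, was 1.34-fold lower, at 69.0, 63.5 and 69.3 against 94.0, 89.2 and 87.0 (-0.42 ± 0.08; adjusted p = 1.36e-06). Acacb, the carboxylase at the mitochondrial surface that is the main form in heart, stood at 289, 328 and 308 against 523, 535 and 521 (-0.77 ± 0.04; adjusted p = 2.88e-48), without overlap. Acaca, its cytosolic relative, stood at 84.0, 74.1 and 83.3 against 92.0, 99.5 and 75.9, and the groups overlapped (-0.14 ± 0.08; adjusted p = 0.113). Me1, the malic enzyme that makes NADPH for lipogenesis, also overlapped, at 65.0, 78.0 and 74.7 against 81.5, 66.7 and 57.9 (0.08 ± 0.09; adjusted p = 0.435).

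Palmitate is lengthened by ELOVL6, and polyunsaturated fatty acids by ELOVL5. Their genes moved in opposite directions: Elovl6 stood at 4.62, 2.89 and 2.54 in untreated KO against 11.5, 14.5 and 12.5 in WT (-1.91 ± 0.27; adjusted p = 6.69e-11), and Elovl5 at 45.9, 48.8 and 43.9 against 35.7, 43.7 and 33.3 (0.30 ± 0.11; adjusted p = 0.0124). Elovl6 rests on 8 to 15 counts per KO library. For Elovl5 the lowest KO and the highest WT library nearly touched, and its call did not hold with DESeq2 (adjusted p = 0.142) and with the edgeR test without untreated KO replicate 2 (0.0573), WT replicate 1 (0.0580) or WT replicate 3 (0.114).

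The stearoyl-CoA desaturases, which put the first double bond into palmitate and stearate, were all lower. Scd1 stood at 130, 142 and 166 in untreated KO against 307, 363 and 267 in WT (-1.09 ± 0.06; adjusted p = 2.34e-51). Scd4, a form known from the heart, stood at 14.8, 17.3 and 16.5 against 65.2, 57.8 and 62.0 and was 3.79-fold lower (-1.92 ± 0.12; adjusted p = 6.91e-38). Scd2, the form known from brain, stood at 41.2, 43.6 and 41.3 against 67.3, 71.6 and 61.3 (-0.66 ± 0.10; adjusted p = 2.37e-10). Groups did not overlap for any of the 3. Scd4 made up 7.40% to 8.53% of the reads of these 3 genes in KO and 11.8% to 15.9% in WT, Scd2 18.5% to 22.2% and 14.6% to 15.7%, and the Scd1 shares overlapped. The 3 genes are closely related neighbours on chromosome 19, and the sources used here do not say how reads that match more than 1 of them were counted, so the split between them is uncertain.

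Triglyceride is built in steps: GPAM adds the first fatty acid to glycerol phosphate, LPIN1 removes the phosphate, and DGAT1 or DGAT2 add the last fatty acid. Gpam stood at 158, 172 and 170 in untreated KO against 264, 272 and 273 in WT (-0.69 ± 0.05; adjusted p = 1.15e-29). Lpin1 stood at 102, 97.6 and 103 against 317, 335 and 314 and was 3.18-fold lower (-1.67 ± 0.06), with the smallest adjusted p of the 31 genes (5.41e-84). Neither gene's groups came close to each other. At the last step Dgat2, at 96.4, 107 and 90.3 against 218, 206 and 222, was 2.20-fold lower (-1.13 ± 0.06; adjusted p = 2.13e-47). Dgat1, at 18.2, 19.9 and 21.9 against 11.5, 15.9 and 13.9, was 1.46-fold higher (0.54 ± 0.17; adjusted p = 0.00396). The Dgat1 call was lost with DESeq2 (adjusted p = 0.0861).

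**Figure D2:**
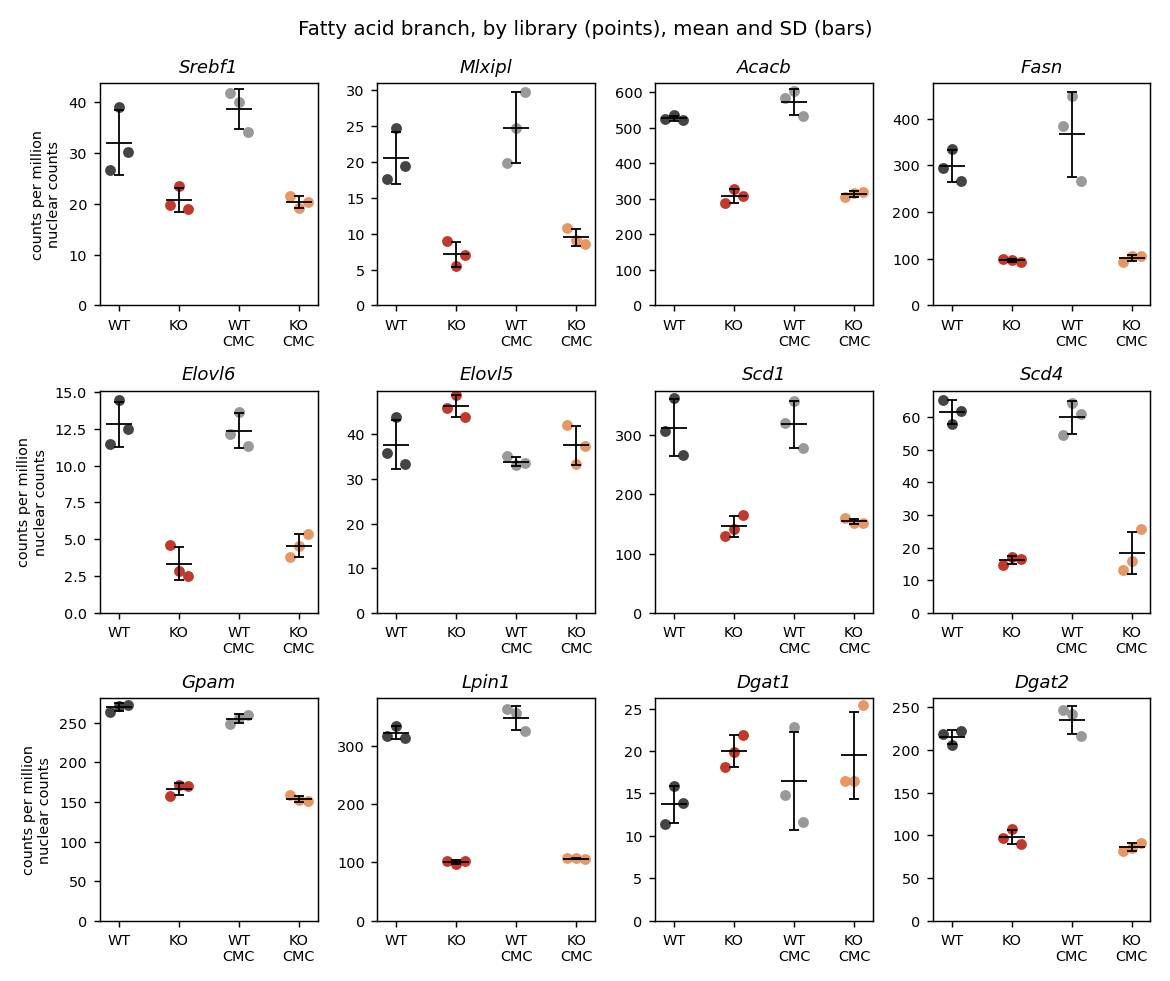
Levels of 12 fatty acid branch genes in CPM of nuclear counts (y axis, from 0) in the 3 libraries of each group (points), with the mean and SD (bars). Fasn, Lpin1 and Scd4 of KO lie far under WT with and without CMC, whereas Elovl5 and Dgat1 of untreated KO lie just above WT.

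Ratios of levels per kilobase show these paired enzymes against each other within a library, free of scaling between libraries. The pairs were chosen after their values were seen and are given without a test. Dgat1 over Dgat2 was 0.188 to 0.245 in untreated KO and 0.0530 to 0.0779 in WT. Elovl5 over Elovl6 was 18.1 to 31.5 against 4.87 to 5.70, and Acaca over Acacb 0.127 to 0.164 against 0.0821 to 0.105. No group of KO overlapped its WT group for these ratios, before or after CMC. Srebf1 over Srebf2 went the other way: it was 0.886 to 1.24 in untreated KO and 1.10 to 1.79 in untreated WT, which overlap. After CMC it was 0.647 to 0.886 in KO and 1.34 to 1.45 in WT.

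**Figure D3:**
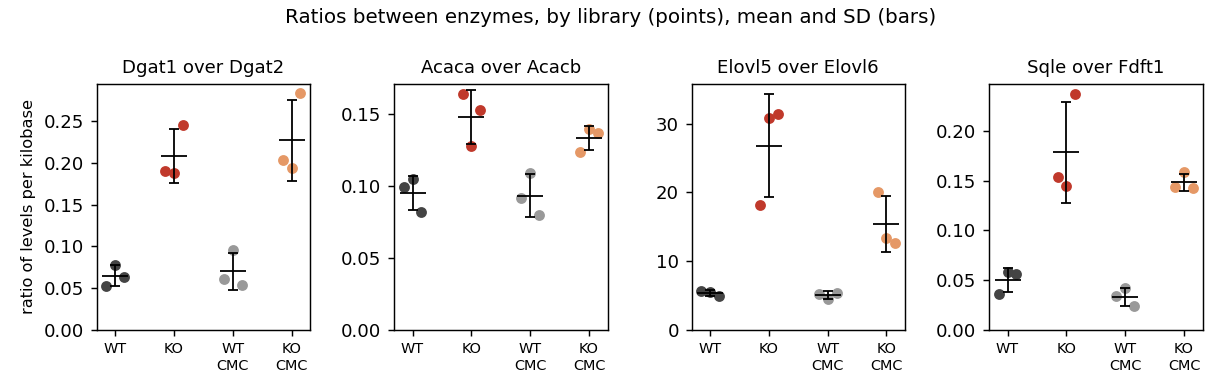
Ratios of levels per kilobase of exon within each library (y axes, from 0) for 4 pairs of enzymes, with points for libraries and bars for the mean and SD of each group of 3. KO lies above WT in every panel, with and without CMC, and Elovl5 over Elovl6 spreads most in untreated KO, from 18.1 to 31.5. In each pair, chosen after the values were seen, the gene that rose or fell less in KO is on top.

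Of the 2 regulators in the sterol branch, Insig1 fell and Srebf2 did not pass. Srebf2, which encodes SREBP-2, stood at 17.2, 16.7 and 19.1 in untreated KO and at 21.5, 19.4 and 24.3 in WT (-0.29 ± 0.16; adjusted p = 0.0996). Insig1, the SREBP anchor that is itself an SREBP target, stood at 17.5, 16.7 and 13.03 against 27.1, 25.4 and 19.4 and was 1.51-fold lower (-0.60 ± 0.16; adjusted p = 0.000582). The groups did not overlap for either gene. The Insig1 call was lost with DESeq2 (adjusted p = 0.0553).

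The mevalonate steps held 1 changed gene among those that could be tested. Pmvk, phosphomevalonate kinase, stood at 5.23, 5.78 and 4.77 in untreated KO against 14.9, 9.87 and 14.9 in WT and was 2.50-fold lower (-1.32 ± 0.24; adjusted p = 3.48e-07). Its groups did not overlap. Mvk, the kinase before it, did not pass (-0.61 ± 0.30; adjusted p = 0.0688), nor did Mvd, the decarboxylase after it (0.25 ± 0.34; adjusted p = 0.553). Hmgcs1, the cytosolic synthase that opens the route and carries both motifs shown above, stood at 51.4, 46.5 and 46.7 against 43.7, 45.5 and 52.7 (0.03 ± 0.10; adjusted p = 0.808). Its groups overlapped. Idi1 and Fdps, which make and join the isoprene units, were too low to test: 16 counts over the 3 untreated KO libraries against 14 in WT for Idi1 (ratio 1.03, exact 95% interval 0.473 to 2.29), and 34 against 29 for Fdps (1.06, 0.627 to 1.80). These intervals cover counting error only.

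From squalene onward, neighbouring steps differed in direction. Fdft1, squalene synthase, stood at 17.5, 18.3 and 15.9 in untreated KO against 34.4, 31.03 and 31.9 in WT and was 1.87-fold lower (-0.91 ± 0.14; adjusted p = 4.56e-09). Sqle, the epoxidase that follows and a known rate-limiting step, stood at 5.23, 5.14 and 7.31 against 2.43, 3.53 and 3.46 and was 1.87-fold higher (0.90 ± 0.33; adjusted p = 0.0140). The groups did not overlap for either gene, and the Sqle over Fdft1 ratio per kilobase was 0.145 to 0.237 in KO against 0.0365 to 0.0586 in WT. Fdft1 overlaps Ctsb on the opposite strand, a far more abundant gene (15460 counts over the 12 libraries) that fell too (-0.20; adjusted p = 2.18e-06). Sqle rests on 7 to 23 counts per library, and its call did not hold with DESeq2 (adjusted p = 0.160) and with the edgeR test without untreated KO replicate 3 (0.0985) or WT replicate 1 (0.0815).

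After ring closure by lanosterol synthase (Lss, 0.18 ± 0.25; adjusted p = 0.554), 2 enzymes that take part in removing methyl groups from lanosterol rose. Cyp51, the demethylase, stood at 35.4, 24.7 and 28.6 in untreated KO against 19.4, 16.9 and 18.7 in WT (0.69 ± 0.15; adjusted p = 1.10e-05), and Nsdhl at 7.08, 10.3 and 8.26 against 6.25, 4.23 and 5.20 (0.70 ± 0.27; adjusted p = 0.0184). The groups did not overlap for either gene. Cyp51 overlaps Akap9 on the opposite strand, a far more abundant gene (9134 counts over the 12 libraries) that fell (-0.27; adjusted p = 2.87e-07). The Nsdhl call was lost with DESeq2 (adjusted p = 0.176) and with the edgeR test without untreated KO replicate 2 (0.118) or WT replicate 2 (0.0991). Of the last steps, Sc5d did not pass (-0.12 ± 0.13; adjusted p = 0.447). Dhcr7, the final reductase, stood at 2.15, 1.28 and 3.18 against 5.90, 4.94 and 4.16 (-1.16 ± 0.37; adjusted p = 0.00480), from 4 to 17 counts per library. Its call did not hold with DESeq2 (adjusted p = 0.118) and with the edgeR test without untreated KO replicate 2 (0.0545).

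**Figure D4:**
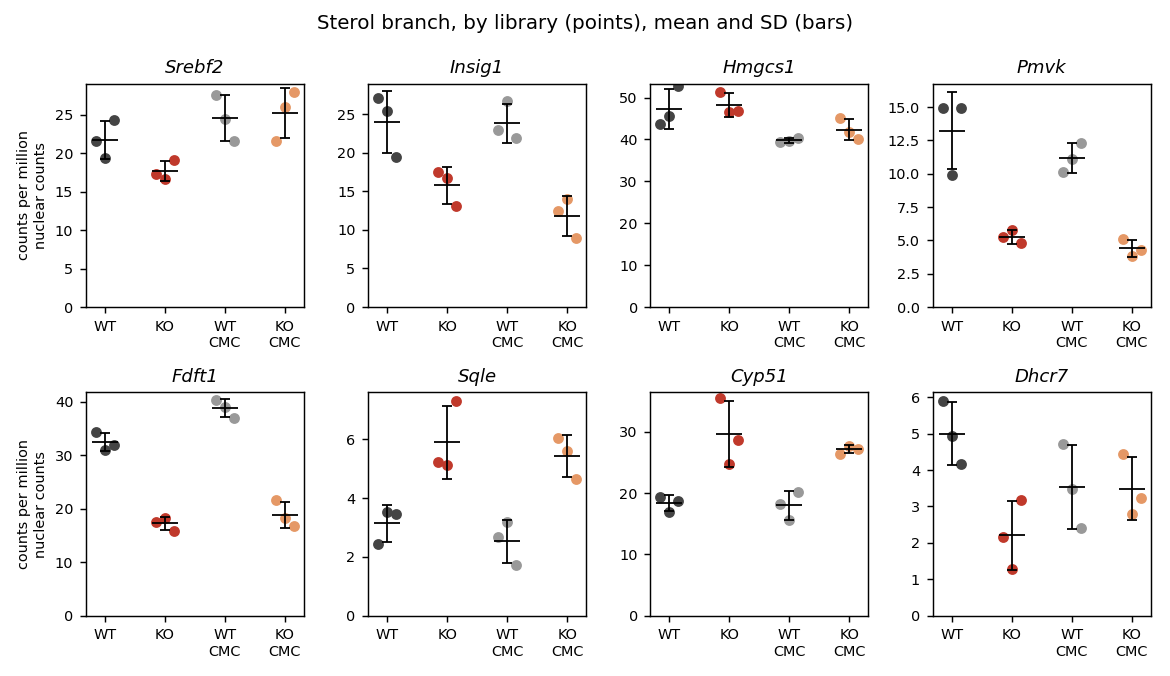
Levels of 8 sterol branch genes in CPM of nuclear counts (y axis, from 0) in the 3 libraries of each group (points), with the mean and SD (bars). Pmvk, Fdft1 and Insig1 of KO lie under WT and Sqle and Cyp51 above it with and without CMC, while Dhcr7 is separated without CMC and overlaps after it.

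Over the tested genes of both branches, the untreated groups did not overlap for 2 higher and 12 lower fatty acid genes and for 3 higher and 7 lower sterol genes, where 61.3% of all genes tested did not overlap, 30.8% higher and 30.5% lower. Among those lower sterol genes, Srebf2, Mvk and Sc5d did not pass the test. The highest KO and lowest WT library nearly touched for Sc5d (28.6 against 28.8) and Srebf2 (19.1 against 19.4). The libraries after CMC are another set from the same genotypes, and the labels do not say whether both sets come from the same hearts. There, 54% of 12198 genes passed, 27.2% higher and 26.8% lower, and the fatty acid branch had 13 genes lower, 0 higher and 3 not passed, with a median of -0.90. Of the fatty acid genes, 14 differed at an unadjusted p under 0.05 with edgeR. Me1 was called higher (adjusted p = 0.0108) without a TMM factor and with DESeq2 size factors (0.0368), and Me1 and Dgat1 without WT replicate 2 after CMC (0.0332 and 0.0316). The sterol branch had 3 lower, 2 higher and 8 not passed, with a median of 0.02. Of 11919 genes tested in both comparisons, 22% were called lower in both and 23% higher in both. In the fatty acid branch 12 of 16 genes were lower and 0 higher in both. In the sterol branch 3 of 13 (Pmvk, Fdft1 and Insig1) were lower and 2 (Sqle and Cyp51) higher in both, which is near or under those shares. No gene was called in opposite directions.

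Fasn after CMC stood at 93.7, 106 and 105 in KO against 383, 448 and 267 in WT (-1.86 ± 0.11; adjusted p = 2.59e-15). Lpin1 stood at 107, 108 and 105 against 362, 355 and 325 (-1.71 ± 0.07; adjusted p = 9.35e-20), and Dgat2 at 82.0, 85.5 and 90.7 against 247, 242 and 217 (-1.46 ± 0.08; adjusted p = 9.94e-17). Replicate 3 had the lowest WT level for all 3 genes and still lay above every KO library. Acaca passed here, at 66.7, 78.5 and 77.4 against 94.9, 116 and 75.0, although its groups overlapped (-0.37 ± 0.11; adjusted p = 0.00507). That call was lost with DESeq2 (adjusted p = 0.0589) and with the edgeR test without KO replicate 1 (0.0579) or WT replicate 2 (0.116) of the CMC libraries.

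Among the remaining genes after CMC, Elovl5 (0.15; adjusted p = 0.310) and Dgat1 (0.22; adjusted p = 0.385) did not pass, and their groups overlapped. Insig1 stood at 12.4, 14.01 and 8.96 in KO against 22.9, 26.6 and 21.9 in WT (-1.02 ± 0.18; adjusted p = 1.42e-05). Sqle stood at 6.04, 5.60 and 4.66 against 2.69, 3.17 and 1.71 (1.08 ± 0.34; adjusted p = 0.00768, lost with DESeq2 at 0.104). Insig1 was thus lower and Sqle higher without overlap here as well. Nsdhl did not pass (0.42; adjusted p = 0.206), and Dhcr7 had a log2 fold change of -0.01 (adjusted p = 0.984), at 4.45, 2.80 and 3.23 against 4.71, 3.49 and 2.40.

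CMC itself was followed by few changes. In WT, 0 of 28 genes tested passed with edgeR, 6 at an unadjusted p under 0.05, and 0 passed with DESeq2, where 2.23% of all genes passed with edgeR. Log2 fold changes ran from -0.50 to 0.29. Without WT replicate 3 after CMC, 5 genes were called higher: Fasn (0.48; adjusted p = 5.18e-08), Acacb, Dgat2, Acly and Lpin1. In KO, 1 of 28 passed, Srebf2 (0.50; adjusted p = 0.0180), where 12.1% of all genes passed. It stood at 21.6, 25.9 and 28.0 after CMC against 17.2, 16.7 and 19.1, and 0 genes passed with DESeq2 or without KO replicate 1 or 2 (untreated) or 2 or 3 (after CMC). The CMC effect differed between genotypes for 0 of 30 genes with edgeR, 2 at an unadjusted p under 0.05, and 0 with DESeq2, where 1.49% of all genes passed with edgeR. Those 2 were Dgat2 (-0.32; adjusted p = 0.0960) and Dhcr7 (1.16; adjusted p = 0.352). Without WT replicate 3 after CMC, Dgat2 (-0.37; adjusted p = 0.00777) and Fasn (-0.41; adjusted p = 0.00283) passed.

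The neighbouring genes of both routes moved in both directions. Of 38 other genes of fatty acid and glycerolipid synthesis, 30 were tested in untreated hearts. Among them 11 rose and 9 fell, 10 did not pass, and the median was -0.04, where 29.1% of all genes tested rose and 28.7% fell. Pnpla3, a lipid droplet protein and known SREBP-1 target, fell most (-3.31 ± 0.41; adjusted p = 1.75e-13), with 2, 4 and 2 counts in KO against 30, 15 and 30 in WT. Elovl1, the elongase of very long saturated chains, rose (1.504 ± 0.16; adjusted p = 2.58e-17), as did Lpin3, a relative of Lpin1 (1.19 ± 0.22; adjusted p = 7.69e-07). Acsl1, the main acyl-CoA synthetase of heart, fell (-1.17; adjusted p = 8.81e-104), and so did Tecr, the reductase of the elongation cycle (-1.04; adjusted p = 1.85e-53). All 5 passed in the same direction after CMC. Thrsp (Spot 14), a lipogenic cofactor, fell (-0.77; adjusted p = 4.35e-07), and Acss2 and Slc25a1, which supply acetyl-CoA and citrate, did not pass (-0.15 and -0.22; adjusted p = 0.226 and 0.362 by edgeR). These last 3 were picked for their role after their values were seen.

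Of 22 other sterol pathway genes, 17 were tested. Among them 4 rose and 5 fell, 8 did not pass, and the median was -0.12, where 29.1% of all genes tested rose and 28.7% fell. Soat2, a cholesterol esterifying enzyme known from liver and intestine, had 89 counts over the untreated KO libraries and 0 in WT. It was at least 26.8-fold higher, and at least 30.2-fold after CMC (88 counts against 0), taking 3 counts over the group as the floor. Its relative Soat1 rose as well (1.004 ± 0.16; adjusted p = 7.85e-09), as did Abcg1, a sterol exporter (0.95 ± 0.20; adjusted p = 9.05e-06). Acat1, a mitochondrial enzyme of ketone metabolism, fell (-1.40; adjusted p = 3.41e-99). Msmo1, a demethylating enzyme after Cyp51 in the route, though not the next step, rose (0.82 ± 0.19; adjusted p = 5.51e-05). Hsd17b7, which works with Nsdhl in the same step, fell (-0.69 ± 0.14; adjusted p = 3.61e-06). Msmo1 and Hsd17b7 were picked for their role after their values were seen.

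All 24 upstream regulators were tested. Among them 10 rose and 9 fell, 5 did not pass, and the median was -0.03, where 29.1% of all genes tested rose and 28.7% fell. The insulin receptor substrates moved in opposite directions: Irs2 rose (2.46 ± 0.10; adjusted p = 4.11e-65) and Irs1 fell (-1.12 ± 0.07; adjusted p = 1.07e-42). The beta subunits of AMP kinase, which restrains lipogenesis, did so too, with Prkab1 lower (-1.003 ± 0.14; adjusted p = 7.73e-11) and Prkab2 higher (0.78 ± 0.07; adjusted p = 5.04e-23). Ppargc1b, a coactivator of SREBP-1, fell (-0.92 ± 0.13; adjusted p = 1.87e-10). Scap, the SREBP escort, rose (0.45; adjusted p = 8.87e-05) and again after CMC (0.52), whereas Insig2 rose in untreated hearts (0.59; adjusted p = 0.000347) and stood at -0.02 after CMC (adjusted p = 0.939). Scap and Insig2 were picked for their role after their values were seen, and the difference between both Insig2 values was not tested.

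Heart samples can carry fat, so 10 adipocyte markers were followed beside the fatty acid branch. Of 8 tested in untreated hearts, 5 fell (Adipoq, Plin1, Cfd, Ucp1 and Fabp4), 0 rose and 3 did not pass with edgeR, and the median was -0.47. After CMC, 6 of 8 fell and 0 rose. Of all genes tested, 28.7% fell and 29.1% rose in untreated hearts, and 26.8% fell and 27.2% rose after CMC. All 10 markers were detected in every group, Lep with 4 to 7 counts per group. Their summed level was 492 to 528 CPM in untreated KO and 619 to 678 in WT, and 495 to 526 against 624 to 668 after CMC. Without Fabp4, which endothelial cells also express, it was 122 to 123 against 146 to 190, and 107 to 134 against 150 to 212. Adiponectin (Adipoq) stood at 6.77, 8.67 and 8.26 against 20.1, 17.3 and 18.0 (-1.22; adjusted p = 1.71e-08), perilipin 1 (Plin1) fell (-0.94; adjusted p = 3.10e-05), and Cidec, at 8.004, 6.42 and 10.2 against 7.29, 8.46 and 10.4, did not pass (-0.08; adjusted p = 0.787). The marker sum without Fabp4 was 163, 190 and 146 in untreated WT replicates 1 to 3, and Fasn was 295, 335 and 267. After CMC the WT sums were 190, 212 and 150, and Fasn was 383, 448 and 267. In WT the order of libraries was thus the same for both. Adipoq alone, at 17.2, 18.4 and 12.7 in WT after CMC, kept that order there but not in untreated WT. In untreated KO the sums were 121.6, 122.3 and 123.0 and Fasn was 99.7, 96.9 and 93.4, the reverse order. In KO after CMC the sums were 128, 107 and 134 and Fasn was 93.7, 106 and 105, so the orders differed there too. The part of fat cells in the fatty acid branch result was not tested.

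**Figure D5:**
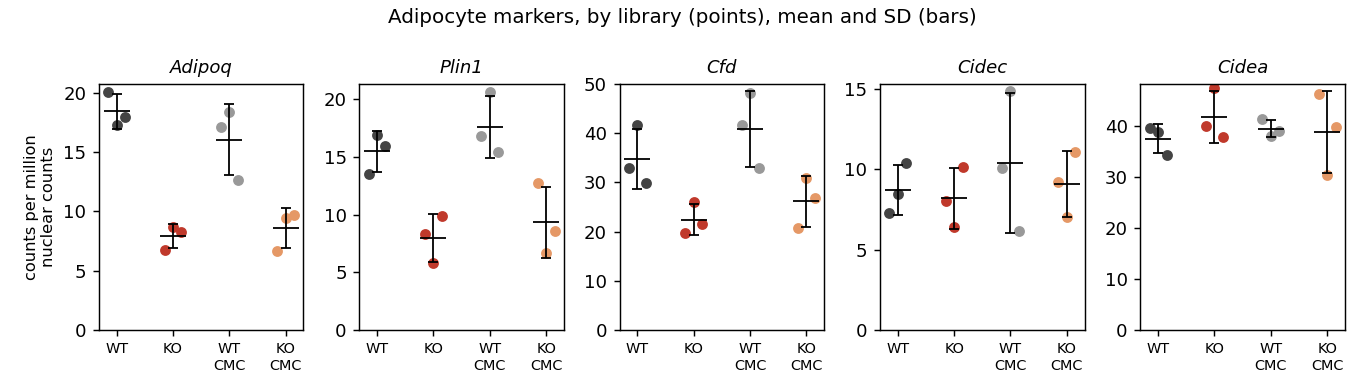
Levels of 5 of the 10 adipocyte markers in CPM of nuclear counts (y axes, from 0) by library (points), with the mean and SD of each group of 3 (bars). Adipoq, Plin1 and Cfd of KO lie under WT, while Cidec and Cidea overlap between genotypes.

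Markers of other cell types were summed in the same way for untreated KO and WT, where 28.7% of all genes tested fell and 29.1% rose. Cardiomyocyte markers (8 tested: 7 fell and 1 rose) lay lower in KO, as given above. Fibroblast markers (6 tested: 3 fell and 2 rose) summed to 1215 to 1228 against 1436 to 1513, and smooth muscle and pericyte markers (5 tested: 3 fell and 0 rose) to 1364 to 1399 against 1721 to 1799. Both sums were lower in KO without overlap. Endothelial sums overlapped, at 1080 to 1124 against 1113 to 1183 (6 tested: 3 fell and 1 rose), and macrophage sums were higher in KO, at 321 to 342 against 304 to 308 (6 tested: 0 fell and 1 rose). Of 5 hepatocyte markers, Alb and Serpina1a were at 0 in all untreated libraries. Apob and Ttr had 2 and 1 counts over the untreated KO libraries and 0 in WT. Cyp2e1 had 93 counts in untreated KO and 100 in WT and did not pass (adjusted p = 0.335 by edgeR). The part of these cell types in the results was not tested.

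The authors' deposited table of untreated KO against WT, whose tool the table does not name, gave like sizes and fewer calls. At its adjusted p of 0.05 it held 12 of 16 fatty acid genes lower and 0 higher, and in the sterol branch 1 of 15 higher (Cyp51) and 2 lower (Pmvk and Fdft1). The authors' deposited table gave a log2 fold change of -1.61 for Fasn, -1.65 for Lpin1 and -1.91 for both Scd4 and Elovl6. Dgat1 (adjusted p = 0.0848), Elovl5 (0.141) and Insig1 (0.0539) did not pass in the authors' deposited table.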

How the data were processed

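The authors deposited gene tables of unnormalised read counts in the layout of featureCounts. HISAT2 2.0.5, SAMtools 1.5, featureCounts 1.5.1, DESeq2 1.16.1 and mm10 are named in the submitters' processing notes. The authors' deposited table gives log2 fold changes and p-values. Symbols came from GENCODE M21, and 279 features without one stayed in the fits. The 36 mitochondrial features were left out of library sizes, scaling and tests. Low counts were removed by filterByExpr, TMM factors applied and the quasi-likelihood test of edgeR 4.0.16 (R 4.3.3) used in 5 comparisons, on the 6 libraries of each pair of groups, or on all 12 for the difference of CMC effects. Alternatives were other scalings, DESeq2 1.42.0, no filter, all 12 libraries, a replicate block and leaving out libraries. The members and lists were chosen with earlier results of these data known. All members are named, and up to 5 called genes with the largest change per other list, except 1 that is not reported here.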

Additional observations from a re-analysis of the deposited data

How the results depend on the processing

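Of 40 called results of single genes, 31 kept their call under every alternative run, 9 lost it under at least 1 and 0 changed sign. Of 19 that did not pass between genotypes, 5 passed and 8 changed sign under at least 1; in the CMC comparisons Fasn, Acacb, Dgat2, Acly, Lpin1 and Elovl5 passed under at least 1. With DESeq2, untreated KO hearts had 0 fatty acid genes higher, 1 sterol gene higher and 2 lower, 1 sterol gene was higher after CMC, and 0 genes were higher with CMC in KO. Without a TMM factor, 1 fatty acid gene was higher after CMC, 1 gene (Elovl5) was lower with CMC in KO and 1 (Dgat2) in the difference of CMC effects. With DESeq2 size factors, 1 fatty acid gene was higher after CMC. Fasn was the 1 gene called higher with CMC in WT without a filter, with all 12 libraries and with the replicate block. Deviations from the group means correlated at -0.08 to 0.03 for same-numbered libraries and at -0.02 to 0.05 for other pairs. These values cannot decide whether the replicate numbers pair the libraries, because the spread in most groups was little above counting error. The replicate block changed no other count of members called. The cause of these shifts was not tested.

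Leaving out each library in turn gave, in untreated hearts, 1 to 2 fatty acid genes higher and 12 to 13 lower, 2 to 3 sterol genes higher and 3 to 5 lower, and a difference of branch medians of -0.70 to -0.57 (-0.61 with all libraries). After CMC it gave 0 to 2 and 12 to 13, 2 and 3, and -0.98 to -0.71 (-0.92). For CMC in WT it gave 0 to 5 higher, for CMC in KO 0 to 1 higher and 0 to 1 lower, and for the difference of CMC effects 0 to 2 lower.

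In KO against WT, the sign changes were all in genes that did not pass. Untreated, Sc5d was at 0.00046 without a TMM factor, and leaving out libraries gave -0.031 to 0.22 for Me1 and -0.025 to 0.12 for Hmgcs1. After CMC, Dhcr7 was at 0.067 without a TMM factor, 0.013 with DESeq2 size factors, 0.0068 with DESeq2 and 0.016 without a filter. Leaving out libraries there gave -0.23 to 0.25 for Dhcr7, -0.0023 to 0.55 for Dgat1, -0.048 to 0.14 for Srebf2, -0.19 to 0.32 for Mvd and -0.29 to 0.059 for Sc5d.

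Depth limits the sterol branch most: 2683284 to 3187748 nuclear counts per library leave Sqle, Dhcr7, Mvd and Mvk with at most 23 counts each, and Idi1 and Fdps untested between genotypes.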
